A study of Rattus norvegicus with 12 samples.

Results

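The transporters that carry glucose, monocarboxylates and amino acids across the membranes of PC12 cells were followed after addition of PACAP38. The members are every array probe whose gene name begins with Slc1a, Slc2a, Slc3a, Slc7a, Slc16a, Slc38a or Slc43a and a number, which gave 60 genes with 85 probes among 41012 probes. The rule uses no measured value, but these families were picked with earlier results of the same data known. One of the 60, Slc7a6os, is named for lying opposite Slc7a6 and is not itself a transporter. Its 3 probes were kept as the name rule gave them, and calls without them are the same.

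PC12 cells descend from a rat pheochromocytoma, a tumour of the adrenal chromaffin cells, and were obtained as RCB0009 from the Riken Cell Bank. PACAP38 is a neuropeptide that acts through the Pac1 receptor and raises cyclic AMP. It was added at 1e-07 M, and RNA was taken early (5, 10 and 15 min) and later (30, 60 and 120 min) from treated cells and from control cells of the same time. At each time point 1 treated pool and 1 control pool, each of RNA from 6 samples, were hybridised together on 2 arrays of the Agilent Whole Rat Genome 4x44K design with the dyes swapped, giving 12 arrays on 3 slides. The slides hold 5 and 10 min, 15 and 30 min, and 60 and 120 min, so slide and time cannot be told apart across slides. All groups were of this 1 line in serum-containing medium, and the control is described in the study as having no PACAP added.

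Because both arrays of a time point carry the same 2 pools, each time point is 1 replicate, and no test of PACAP38 against control at a single time point was possible. The folds of both arrays are given instead. A probe was called when its processed signal was at least 2-fold higher, or at most 0.5 times the control, on both arrays in the same direction, with the scanner software's spot p-value below 0.01 on both. "Well above background" is the scanner software's own flag for a spot. It was set for 39.8% to 48.9% of spots for PACAP38 RNA and 38.4% to 49.6% for control RNA, and no spot was saturated. All 7 chromaffin genes on the array among those listed (Th, Dbh, Ddc, Chga, Chgb, Slc18a1 and Phox2a) were well above background in all 24 array channels. None of the 5 adrenal cortex or 3 endothelial genes was in any channel. Among 4 fibroblast genes Col1a1 was in all 24 channels and Dcn in 9, and among 3 macrophage genes Cd68 was in all 24 and Csf1r in 1, while Col3a1, Lum and Ptprc were in none.

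The solute carrier families divide this work. Slc2a genes encode the facilitative hexose carriers (GLUTs), and Slc16a genes the monocarboxylate carriers that move lactate, pyruvate and, for some members, aromatic amino acids. Slc1a covers the sodium-coupled glutamate carriers and the neutral amino acid exchangers ASCT1 and ASCT2, Slc38a the sodium-coupled neutral amino acid carriers (SNATs) that bring in glutamine and alanine, and Slc43a a small group of facilitative carriers for large neutral amino acids. Slc7a members include the cationic amino acid carriers and the light chains of exchangers, which reach the cell surface only when joined to a heavy chain of Slc3a. Several genes of amino acid transport are known targets of the amino acid response, in which transcription factors of the ATF and C/EBP families bind a composite element.

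The probes that the results turn on are 60-mers read from the deposited scanner files, printed 5′ to 3′ with positions on rn4 as the files annotate them. They are shown because probes of a single gene differed. Slc16a6 and Slc2a9 each had 1 probe that was called and others that were not, and both Slc38a1 probes were called.

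Slc1a4 (A_44_P421391, chr14:101123891-101123950, - strand): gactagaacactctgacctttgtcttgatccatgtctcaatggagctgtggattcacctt
Slc7a8 (A_42_P606971, chr15:32800951-32801010, - strand): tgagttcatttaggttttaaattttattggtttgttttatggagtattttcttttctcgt
Slc38a1, brighter (A_43_P10386, chr7:135248144-135248203, - strand): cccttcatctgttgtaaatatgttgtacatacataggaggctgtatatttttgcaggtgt
Slc38a1, dimmer (A_44_P264785, chr7:135254473-135254532, - strand): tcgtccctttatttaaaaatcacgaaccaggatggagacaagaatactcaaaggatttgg
Slc2a9, called (A_44_P791941, chr14:77740070-77740129, + strand): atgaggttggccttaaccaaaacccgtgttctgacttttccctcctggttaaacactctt
Slc2a9, not detected (A_44_P302145, chr14:77711046-77711105, + strand): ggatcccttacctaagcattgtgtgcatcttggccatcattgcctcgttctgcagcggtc
Slc16a6, upstream (A_44_P751844, chr10:98854447-98854506, + strand): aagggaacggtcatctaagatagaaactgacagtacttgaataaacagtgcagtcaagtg
Slc16a6, middle (A_43_P22757, chr10:98872938-98872997, + strand): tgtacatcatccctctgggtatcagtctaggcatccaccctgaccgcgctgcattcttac
Slc16a6, brightest (A_43_P17415, chr10:98875104-98875163, + strand): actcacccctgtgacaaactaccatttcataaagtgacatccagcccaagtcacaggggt

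The upstream Slc16a6 probe lay 18.49 kb before the middle probe and 20.66 kb before the brightest probe on the same strand. It was not placed relative to the exons of the gene here, so which transcript its signal reports was not tested. The Slc2a9 probes were 29.02 kb apart and the Slc38a1 probes 6.329 kb apart.

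Of the 60 genes, 25 had a probe well above background in the control RNA on all 12 arrays, and 26 were in no channel of any array. Counted by probe, 30 of the 85 (35.3%) were well above background in all 12 control channels, beside 35.3% of the 41012 array probes, and 40 (47.1%) were in no channel, beside 43.3%. The Slc7a family had the most unmeasured genes, 9 of 15, among them Slc7a11, the cystine and glutamate exchanger, and Slc7a2 and Slc7a3, both cationic amino acid carriers. In the Slc1a family 4 of 7 genes were in no channel, and these included the glutamate carriers Slc1a1 and Slc1a2. Slc1a3, a further glutamate carrier, was flagged in 1 of 24 channels. The measured Slc1a genes were the neutral amino acid exchangers Slc1a4 (ASCT1) and Slc1a5 (ASCT2). Also in no channel were the monocarboxylate carrier Slc16a7, with Slc7a6, Slc7a7, Slc38a3, Slc43a1 and Slc43a3. A probe that is not well above background gives only an upper bound on its RNA and does not show that the gene is off.

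**Figure D1:**
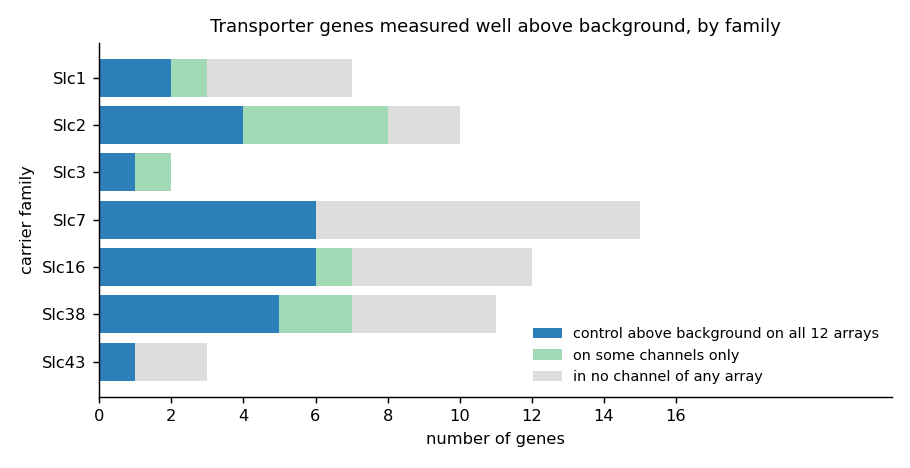
Number of transporter genes in each of the 7 families (bars, genes on the horizontal axis) by whether the control RNA of at least 1 probe was well above background on all 12 arrays, whether any probe was in some channels only, or in none. Slc7 has 6 genes measured throughout and 9 in no channel, and Slc3 has none in the last class.

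Control pools were compared probe by probe, as log2 signal relative to the 75th percentile of the same array channel, each pool being the mean of its 2 arrays. Slc2a1, the widespread glucose carrier GLUT1, lay between 2.52 and 2.75 over the 6 control pools (mean 2.65, SD 0.09). Slc16a1, the lactate carrier MCT1, lay between 3.56 and 3.81 (SD 0.11), and Slc16a3, the lactate carrier MCT4, between 5.40 and 6.11 (SD 0.26). Slc3a2, the heavy chain 4F2hc that joins several Slc7a light chains, had an SD of 0.06. Its partner Slc7a5 (LAT1) had an SD of 0.14, Slc1a5 of 0.08, and Slc38a2 (SNAT2) of 0.04. Slc2a3, the neuronal glucose carrier GLUT3, was dimmer, with control RNA above background on 9 of 12 arrays and an SD of 0.60. Slc2a4 (GLUT4), the insulin-responsive carrier, was above background in 3 of 12 control arrays, and Slc2a2 (GLUT2), the liver and islet carrier, in 1 of 12. Slc3a1, the other heavy chain, was above background in 5 of 12.

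No transporter probe was called at 5, 10 or 15 min. Over the whole array 0%, 0.0658% and 0.117% of probes were called at these times. At 30 min none was up-regulated, with 0.249% of the array called higher, and the upstream Slc16a6 probe was down-regulated, with 0.102% called lower. At 60 min Slc1a4 was up-regulated (1 of 85 probes, or 1.18%, beside 0.870% of the array) and the same Slc16a6 probe was down-regulated (1 of 85, beside 0.375%). At 120 min 5 probes of 4 genes were up-regulated, 5.88% of the 85 probes beside 1.95% of the array. These were Slc1a4, Slc7a8, Slc38a1 with both its probes, and Slc2a9. The Slc16a6 probe was the single down-regulated probe at 120 min, 1.18% beside 1.53% of the array.

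Of the 85 probes, 35 (27 genes) were well above background in at least 12 of the 24 channels, a filter that treats both RNAs alike. Among them 4 (11.4%) were called higher and 1 (2.86%) lower at 120 min, beside 3.43% and 3.58% of the 17333 array probes that passed the same filter. The Slc2a9 probe did not pass it. The median log2 fold of the 35 probes lay between -0.01 and 0.03 from 5 to 60 min. It was 0.22 at 120 min, beside -0.04 for all probes that passed, with 0.078 from the array with PACAP38 in Cy3 alone. Normexp background correction with loess gave 0.076, beside -0.020 for all such probes, and with median centring the sign turned, to -0.026 beside -0.13. At 120 min 19 of the 35 probes were above 1 on both arrays and 11 below 1 on both, or 54.3% and 31.4%, beside 31.8% and 40.3% of all probes that passed. With normexp and median centring in place of the deposited normalisation these counts were 5 and 11, or 14.3% and 31.4%, beside 9.26% and 42.1% of all. With normexp and loess they were 19 and 11, beside 30.2% and 41.0%.

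**Figure D2:**
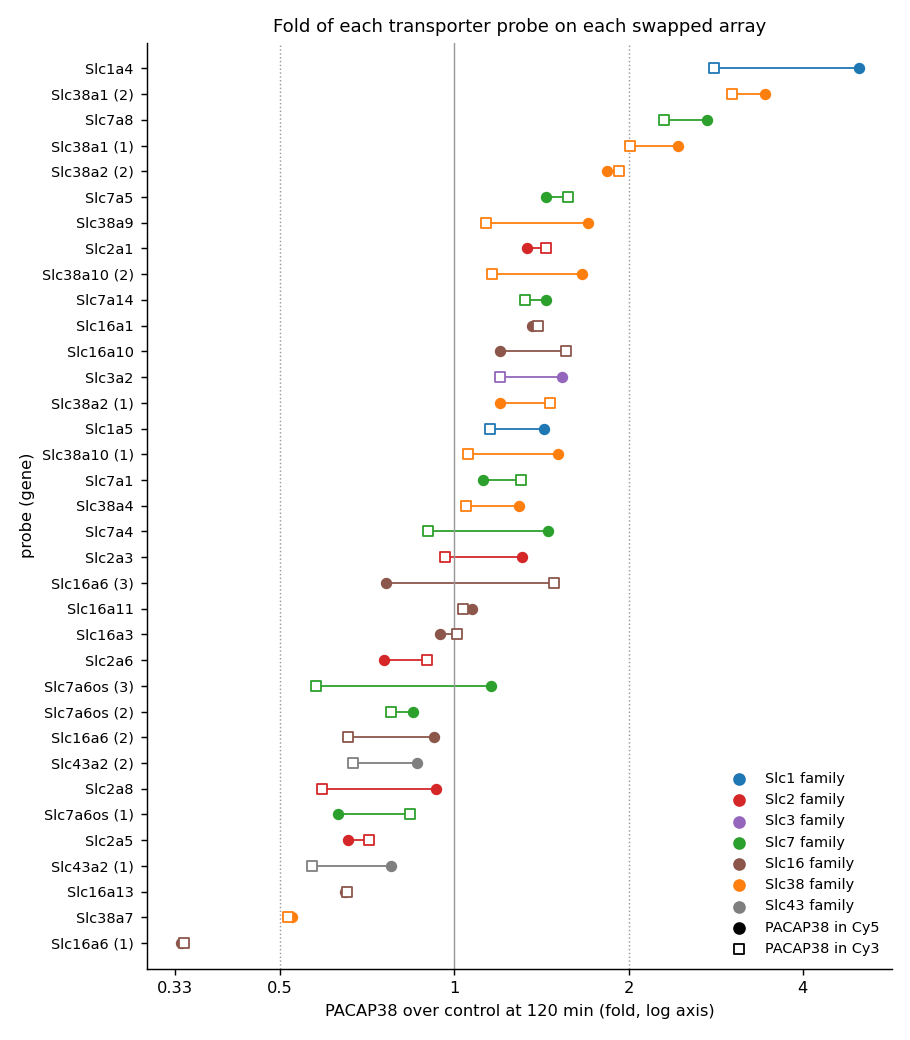
PACAP38 over control at 120 min (horizontal, fold on a log axis) for the 35 transporter probes well above background in at least 12 of 24 channels, with 1 symbol for each swapped array; numbers in brackets only tell probes of a gene apart. Slc1a4, both Slc38a1 probes and Slc7a8 lie at or above 2 on both arrays, Slc38a7 lies just above 0.5, and only the upstream Slc16a6 probe lies below it on both.

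Of the 4 up-regulated genes, Slc1a4, Slc38a1 and Slc7a8 encode neutral amino acid carriers. Slc1a4 encodes ASCT1, a sodium-dependent exchanger of alanine, serine, cysteine and threonine. Its processed signal in control RNA was 58.9, 60.4, 42.5, 46.4, 62.3 and 77.9 from the first to the last time. In PACAP38 RNA it was 62.0, 55.8, 43.7, 68.1, 142.9 and 292. The groups lay close up to 15 min, and the treated pool was the higher from 30 min on. The arrays gave 2.04 and 1.06 at 30 min, so the difference there was on 1 array alone. At 60 min the folds were 2.47 with PACAP38 in Cy5 and 2.13 in Cy3, a geometric mean of 2.29. At 120 min they were 4.99 and 2.81, a geometric mean of 3.75. The signal is dim, and normexp background correction with loess, which adds a constant of 50, gave 1.49 at 120 min, in the same direction but below the 2-fold limit.

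Slc38a1 encodes SNAT1, a sodium-coupled carrier of glutamine and alanine that is prominent in neurons. The brighter probe gave control signals of 914, 808, 739, 834, 1042 and 1299 at the 6 times and PACAP38 signals of 1030, 893, 799, 774, 1338 and 2874. Both RNAs were therefore similar through 30 min, at folds of 0.928 to 1.13, and separated at 60 and 120 min. The arrays gave 1.44 and 1.15 at 60 min, and 2.43 and 2.01 at 120 min (geometric mean 2.21). The dimmer probe, 6.329 kb away, gave 1.45 at 60 min and 3.22 at 120 min, with arrays of 3.44 and 3.02 at the later time. Direction and call were the same for both probes, while the sizes differed by more than the 2 arrays of either. With normexp and loess the probes gave 1.91 and 1.42, and neither kept its call.

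Slc7a8 encodes LAT2, a light chain that exchanges neutral amino acids. Its control signals were 1926, 1973, 2138, 2147, 2836 and 3431, and its PACAP38 signals 1904, 2108, 1832, 2133, 4476 and 8616. Both RNAs were well above background on every array. The fold was 1.58 at 60 min, with 1.67 and 1.49 on the arrays, and 2.51 at 120 min, with 2.73 and 2.31. This was the 1 higher call left under normexp and loess, at 2.22, and normexp with median centring gave 1.91, which ends it.

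Slc2a9 encodes GLUT9, which carries urate and is placed in the hexose carrier family by sequence. Its called probe gave control signals of 28.4, 19.4, 15.1, 19.55, 19.0 and 29.6, all not well above background. The PACAP38 signals were 33.3, 26.0, 15.7, 16.2 and 25.8 up to 60 min, also not well above background, and 334.6 at 120 min, above it on both arrays. Since the control RNA had only a bound, the signal after PACAP38 was at least 11.1-fold higher at that time. This bound sets the treated signal on both arrays against the higher of the probe's own control signal and the lowest signal flagged above background there. Under normexp with loess the fold was 1.57, which ends the call. The other Slc2a9 probe was in no channel of any array, so the rise was seen by 1 of 2 probes. No fold can be given for the 5 earlier times.

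**Figure D3:**
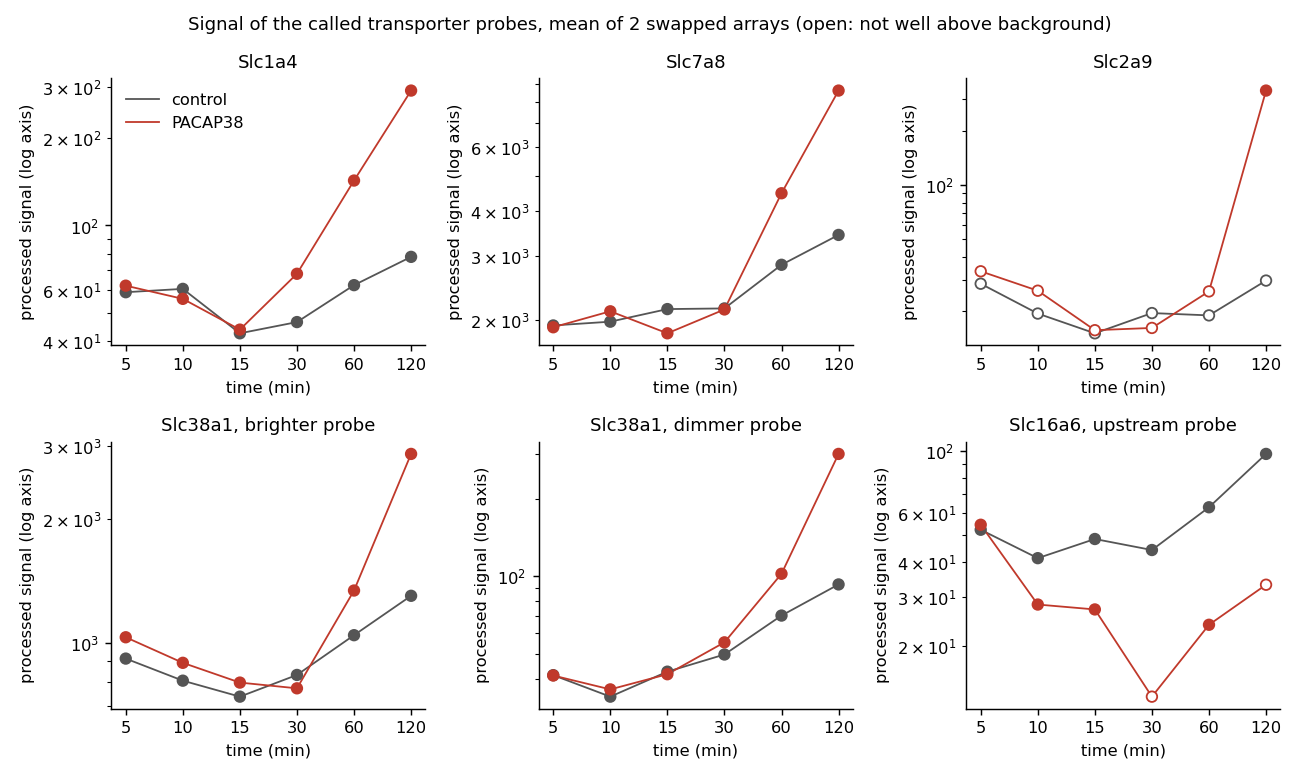
Processed signal (vertical, log axis, arbitrary units) of the 6 called probes in control and PACAP38 RNA at the 6 times, each point the geometric mean of 2 swapped arrays and open where neither array was well above background. Signals are not scaled between arrays, so the lines are to be read against each other within a time; treated RNA lies higher at 60 and 120 min in the Slc1a4, Slc7a8 and Slc38a1 panels, at 120 min in the Slc2a9 panel, and lower from 10 min in the Slc16a6 panel.

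Slc16a6 (MCT7) belongs to the monocarboxylate carriers and had 3 probes. The upstream probe gave control signals of 52.3, 41.35, 48.4, 44.2, 63.0 and 97.8, and PACAP38 signals of 54.5, 28.2, 27.1, 13.2, 23.85 and 33.2. The RNAs were alike at 5 min and the treated pool was the lower at all later times. The arrays gave 0.876 and 0.530 at 10 min, and 0.465 and 0.672 at 15 min. At 60 min the arrays gave 0.365 and 0.393. At 30 min the treated RNA was not well above background, and its signal was at least 1.53-fold lower. The same held at 120 min, with a signal at least 2.70-fold lower. The brightest probe gave geometric mean folds of 0.930 to 1.07 over the 6 times and was called at none. At 120 min its arrays went opposite ways, at 0.762 and 1.49, and the spot was well above background on 1 of the 2. The middle probe gave 0.778 to 1.01, with 0.923 and 0.656 on the arrays at 120 min, and was called at none. The Slc16a6 call therefore rests on 1 dim probe of 3, annotated to a predicted transcript, and under normexp with loess its fold at 120 min was 0.850.

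**Figure D4:**
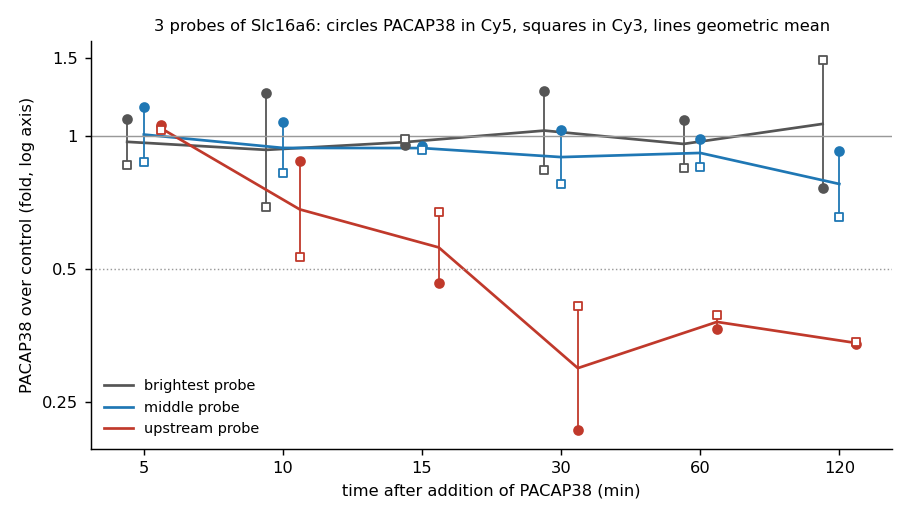
PACAP38 over control (vertical, fold on a log axis) at the 6 times for the 3 Slc16a6 probes, with both swapped arrays and a line through their geometric mean. The upstream probe falls below 0.5 on both arrays from 30 min, while the middle and brightest probes stay between 0.656 and 1.49; at 30 and 120 min the treated RNA of the upstream probe was not well above background.

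Probes near the limits at 120 min were few. Just inside lay the brighter Slc38a1 probe (2.43 and 2.01). Just outside were Slc38a7, a lysosomal glutamine carrier, at 0.525 and 0.516, and the dimmer Slc38a2 probe at 1.83 and 1.92. Slc38a2 encodes SNAT2, the carrier best known for rising when amino acids are short, and its brighter probe gave 1.20 and 1.46. The probes of Slc38a2 thus shared a direction and differed in size.

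The light chain and heavy chain of the LAT1 exchanger were not called. Slc7a5 gave 1.44 and 1.57 at 120 min (geometric mean 1.504) and 1.31 at 60 min, and Slc3a2 gave 1.53 and 1.198 (1.36 at 120 min, 1.07 at 60 min). Slc7a1, the cationic carrier CAT1, gave 1.12 and 1.31 at 120 min. At 60 min its log2 fold was 0.27, and 0.70 with its dimmer probe. Slc1a5 (ASCT2) gave 1.43 and 1.16. With the deposited normalisation all 4 lay above 1 on both arrays and below the 2-fold limit. With normexp and median centring Slc7a1 turned to 0.982, and Slc1a5 was at 1.05, Slc3a2 at 1.13 and Slc7a5 at 1.14. Slc43a2 (LAT4), the measured gene of its family, gave 0.864 and 0.669 with its brightest probe and 0.777 and 0.569 with the next, and Slc38a4 gave 1.29 and 1.05, turning from 1.16 to 0.902 with median centring.

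Among the hexose carriers other than Slc2a9, Slc2a1 (GLUT1) was at 0.971 at 60 min and 1.39 at 120 min, where the arrays gave 1.34 and 1.44. Slc2a3 (GLUT3) was at 1.36 at 60 min and 1.12 at 120 min, with 1.31 and 0.965 on the arrays at the later time and 0.996 with median centring. Neither was called. Slc2a5, the fructose carrier, gave 0.656 and 0.713, and the intracellular carriers Slc2a6 and Slc2a8 gave 0.825 and 0.742 as geometric means. For Slc2a4 the treated RNA was not well above background at 120 min, and its signal was at least 1.14-fold lower, without a call. The arrays of its other probe, also dim, went opposite ways, at 2.90 and 0.478.

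Among the monocarboxylate carriers, Slc16a1 (MCT1) gave 1.36 and 1.40 at 120 min (1.32 at 60 min) and Slc16a3 (MCT4) 0.945 and 1.01. Slc16a10, the aromatic amino acid carrier TAT1, gave 1.38 and 1.73 at 60 min, and 1.20 and 1.56 at 120 min. Slc16a11 and Slc16a13 lie on opposite strands of chromosome 10, their probes 1.329 kb apart, and gave 1.06 and 0.650 at 120 min, or 0.916 and 0.620 with median centring. A second group of neighbours is on chromosome 7, where Slc38a1, Slc38a2 and Slc38a4 lie on 1 strand with probes 117.4 and 327.5 kb apart. Their brightest probes gave 2.21, 1.33 and 1.16 in that order, and 1 of these 3 genes was called. Slc7a6os had probes on both strands that overlap by 28 bases, and was called with none of its 3, at 0.727 to 0.817.

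The log2 fold, averaged over the swapped arrays, was regressed on log2 minutes with limma across the 6 time points, as this is the replicated information in the design. A probe was fitted when at least 1 of the RNAs was well above background on each of the swapped arrays at 1 or more of the times, so a probe could enter through treated RNA alone, as that of Slc2a9 did. Of 39 transporter probes fitted, 0 passed a Benjamini-Hochberg adjusted p of 0.05, beside 0.725% of the 20265 array probes fitted, and 15 (38.5%) had an unadjusted p below 0.05, beside 28.7% of all probes fitted. Of the 15, 9 rose. With slide as a block 1 of the 39 (2.56%) had an unadjusted limma p below 0.05, beside 4.69% of all. With time in minutes in place of log2 minutes 13 of the 39 passed the adjusted limit (33.3%, beside 26.3% of all fitted). The count thus rests on the scale of time. Slc1a4, Slc7a8 and both Slc38a1 probes were among the 13. Slc2a9 also was, through folds that before 120 min are ratios of signals not well above background. No slope is read for it. Among the 35 fitted probes that also passed the filter treating both RNAs alike, 13 (37.1%) had an unadjusted p below 0.05, beside 30.0% of all that passed it, and 8 of the 13 rose. The lowest limma adjusted p was 0.0612, for Slc1a4. Its log2 fold rose by 0.44 per doubling of time (SE 0.07), by 0.13 under normexp with loess and by 0.12 with median centring. With slide as a block the Slc1a4 slope was 0.34 (SE 0.21). The slope of Slc7a8 was 0.28 (SE 0.08, limma adjusted p 0.101) and 0.18 with median centring. That of the upstream Slc16a6 probe was -0.36 (SE 0.08, limma adjusted p 0.0825), or -0.052 under normexp with loess. The Slc16a6 slope uses the measured folds at 30 and 120 min, where the treated RNA had only a bound.

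All 4 up-regulated genes have a promoter in the RefSeq table of the GRCr8 build, from 250 bases before to 50 after the annotated start, and Slc16a6 does not. The 2 shown hold the composite element bound by C/EBP and ATF factors. Capitals mark matches to this element (TGATGNAAN, on either strand) and to the E box CACGTG.

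Slc1a4 promoter (chr14:98761513-98761812, - strand): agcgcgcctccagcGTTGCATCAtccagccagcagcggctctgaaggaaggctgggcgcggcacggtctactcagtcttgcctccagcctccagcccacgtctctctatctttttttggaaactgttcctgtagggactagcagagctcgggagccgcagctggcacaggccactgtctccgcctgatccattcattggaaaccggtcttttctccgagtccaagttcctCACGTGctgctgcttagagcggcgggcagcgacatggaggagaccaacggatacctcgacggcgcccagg
Slc38a1 promoter (chr7:129681352-129681651, - strand): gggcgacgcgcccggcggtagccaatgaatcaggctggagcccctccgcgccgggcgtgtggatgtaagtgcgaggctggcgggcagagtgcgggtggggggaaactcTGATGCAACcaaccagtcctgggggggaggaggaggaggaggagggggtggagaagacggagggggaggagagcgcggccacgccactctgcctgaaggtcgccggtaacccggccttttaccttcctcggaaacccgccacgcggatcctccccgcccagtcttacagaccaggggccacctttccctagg

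The composite match begins 236 bases before the start in Slc1a4, where it reads GTTGCATCA on the minus strand, and 142 bases before it in Slc38a1, where it reads TGATGCAAC. The element occurred in 3.97% of all 33469 promoters of the table and in 3 of the 43 transporter promoters, those of Slc1a4, Slc38a1 and Slc7a1. The promoters of Slc7a8 and Slc2a9 hold none. The E box was in 6.42% of all promoters and in 8 of 43, Slc1a4 among the up-regulated genes. The cyclic AMP response element TGACGTCA was in 1.83% of all and in 1 of 43 (Slc38a6), its core TGACG in 21.2% and in 11 of 43, and the serum response core in 0.0329% and in 0 of 43. None of these last 3 was in the promoters of the 4 up-regulated genes. A match is a run of letters and not a measured binding site.

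Genes that act beside the carriers were read from lists and called by the same rule, with the brightest probe for each gene. Their counts stand beside the array shares above, 0.870% higher and 0.375% lower at 60 min and 1.95% and 1.53% at 120 min. Those shares count all probes, detected or not, while the lists are counted by gene. Among array probes that passed the channel filter the shares at 120 min were 3.43% higher and 3.58% lower. Of 18 glycolytic genes on the array 0 were called at 60 or 120 min. Ldha, lactate dehydrogenase A, came nearest at 2.08 and 1.71 at 120 min, and Ldhb gave 0.608 and 0.586. The 16 glycolytic genes that passed the channel filter had a median log2 fold of 0.27 at 120 min, 0.26 under normexp with loess and 0.072 with median centring.

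Of 6 genes that regulate glucose or monocarboxylate carriers, 1 was called. Txnip, an arrestin that restrains glucose uptake, was down-regulated to 0.226 at 60 min and to 0.158 at 120 min, with arrays of 0.197 and 0.126 at the later time. Its control signals were 176.2, 357.5, 565.3, 356.5, 1182 and 912 at the 6 times, and its PACAP38 signals 159.4, 370.3, 520.8, 226.5, 266.7 and 144. Signals are not scaled between arrays, so treated signals of different times are not compared. Relative to the array's 75th percentile the control pools ran from log2 -0.26 at 5 min to 2.11 at 60 min, a 5.18-fold spread. The pools at 15 and 120 min lay at 1.52 and 1.44, with folds of 0.921 and 0.158. The part of the control spread in the ratio was not tested. Normexp with loess gave 0.394 at 120 min and kept both calls, and median centring gave 0.351 and kept the later one. Its relative Arrdc4 (1.17) and Bsg (1.16) and Emb (1.11), the chaperones of the monocarboxylate carriers, were not called. Among 11 genes of the amino acid response, Atf3 and Cebpb were up-regulated at 60 and 120 min and none was down-regulated. Atf3 reached 19.65 at 60 min and gave 20.9 and 12.2 on the arrays at 120 min, and Cebpb reached 4.88 and 5.53. The Atf3 control signal also was highest at 60 min, at 266.9 beside 71.6 at 30 min and 130.8 at 120 min. The treated signals at these times were 5244, 1088 and 2093, likewise not scaled between arrays. Under normexp with loess Atf3 was at 11.4 and 5.44 and Cebpb at 3.74 and 3.70, and with median centring Cebpb was at 3.18 and Atf3 at 4.75 at 120 min, all of them still called. The others included Atf4 (1.42), Trib3 (1.37) and Asns (0.949), asparagine synthetase, none of them called at 120 min.

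Of 8 glutamine and glutamate genes, Gls2, a glutaminase, was up-regulated at 60 min (2.23) and at 120 min (4.57), and Gclc, the catalytic subunit of glutamate-cysteine ligase, at 120 min (4.37). Glul, glutamine synthetase, gave 1.22 at 120 min. Of 6 polyamine and arginine genes, Odc1, ornithine decarboxylase, reached 3.06 and Arg2, an arginase, 3.55 at 120 min, while Ass1 gave 1.47. Arg2 was above background on 4 of 12 control arrays. Under normexp with loess Gclc fell short of the limit at 1.83 and Arg2 at 1.24, and Gls2 lost its call at 60 min (1.65) and kept it at 120 min (2.60). Odc1 kept its call there at 2.92 and lost it with median centring, at 2.57 as a geometric mean, where Gclc gave 1.69, Arg2 1.22 and Gls2 2.27.

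**Figure D5:**
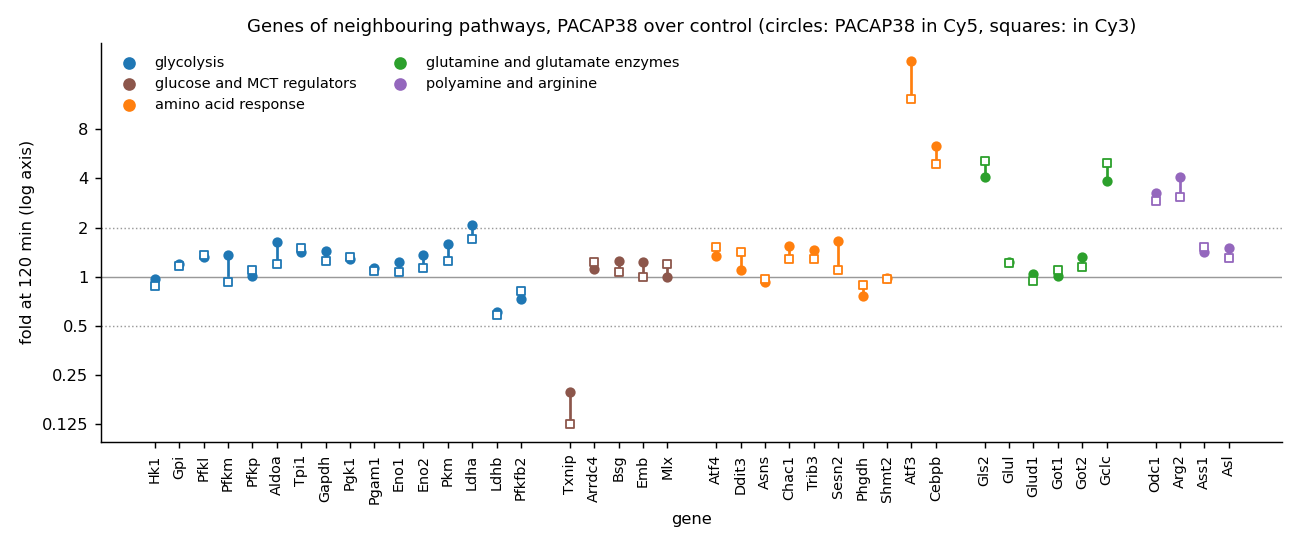
PACAP38 over control at 120 min (vertical, fold on a log axis) for reported genes of the 5 listed pathways with both RNAs measured, 1 symbol for each swapped array. Txnip lies at 0.197 and 0.126, Atf3, Cebpb, Gls2, Gclc, Odc1 and Arg2 lie above 2 on both arrays, and the glycolytic genes lie between 0.586 and 2.08.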

How the data were processed

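Labelled RNA pools were hybridised by the authors to 12 two-colour Agilent 4x44K arrays. Feature Extraction, given as version 11.0.1.1 in the submitters' notes, with modules 12.0.3.1 per the file headers, made the deposited processed intensity by background subtraction, detrending and LOWESS dye normalisation. The deposited files also hold the spot p-value and the log10 ratio of Cy5 over Cy3, as does the deposited value table, and the annotation is on rn4. Ratios were turned to PACAP38 over control, spots of a probe averaged on the log2 scale, and control and outlier spots left out. The deposited log10 ratios served as an alternative.

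Folds are geometric means of 2 swapped arrays. Alternatives used normexp (offset 50) with loess or median centring in limma 3.58.1 (R 4.3.3). The slope fit was tested on simulated data. Gene names are those of the array, and 78 of 85 probes matched RefSeq with the symbol unchanged. Named were genes with a call and 31 main carriers of the families; the members and lists were chosen with earlier results of these data known. Results of 2 listed genes are not reported here. For a gene with several probes the brightest gives its value. With 1 treated and 1 control pool at each time point the precision is limited, and the spread between swapped arrays is technical.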

Additional observations from a re-analysis of the deposited data

Results flagged for a closer look

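The control signal, as log2 relative to the 75th percentile of the array channel, was compared over the 6 control pools for 16 named genes measured in every pool, and 2 had 1 pool far from the others. Chance gives such a gap in about 1 in 20 genes. The brightest Slc16a6 probe lay at -1.85 in the 120 min control pool, and at 0.09 or higher in the other pools. The array with PACAP38 in Cy5 gave 0.60 there and its dye swap -4.31. The Slc2a3 probe lay at -2.86 in the 15 min control pool and at -1.63 or higher in the others, with -4.33 and -1.39 on its 2 arrays. In both cases the swapped arrays of 1 pool differed by more than the pools did. Neither gene's brightest probe was called at any time.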

How the results depend on the processing

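Normexp with loess left 1 probe called higher at 120 min and 0 lower, with 0 in either direction at 60 min and 0 lower at 30 min. With median centring all of these counts were 0. The offset of 50 is near the signals of the dim probes, which by construction draws their folds toward 1. No called fold changed sign. Uncalled probes turned below 1 at 120 min with median centring, among them those of Slc7a1, Slc38a4, Slc2a3 and Slc16a11 and the brightest Slc16a6 probe. Requiring both RNAs well above background left 0 lower at 30 and at 120 min, and counting genes by the brightest probe left 0 lower at 30, 60 and 120 min, since the Slc16a6 call is on its dimmest probe. A limit of 1.5-fold gave 6 higher and 3 lower at 120 min, and the geometric mean alone gave 1 higher at 30 min. The deposited ratios and the fold limit alone gave the same counts. With 1 array in place of 2, counts were 1 higher at 5 min, 0 to 1 higher and 0 to 1 lower at 15 min, 0 to 2 higher and 1 to 2 lower at 30 min, 2 higher and 1 to 2 lower at 60 min, and 5 higher and 1 lower at 120 min. The median log2 fold at 120 min was 0.076 under normexp with loess, -0.026 with median centring and 0.056 with no filter, and 0.078 to 0.26 by single array. Median centring gave 0.12 at 15 min, and single arrays -0.016 to 0.081 at 60 min. Slope calls numbered 13 of 39 with time in minutes (33.3%, beside 26.3% of all probes fitted). The 13 include Slc2a9, whose folds before 120 min are ratios of signals not well above background. Of them 10 were among the 35 that passed the filter treating both RNAs alike (28.6%, beside 28.3%). With log2 minutes 15 had an unadjusted limma p below 0.05 (38.5%, beside 28.7%). That limit was chosen after seeing the data, as were the count over the 35 and leaving out Slc7a6os, which changed no count of calls. Leaving out a time point or an array gave 0 to 1, the 1 being Slc1a4 without 5 min (limma adjusted p 0.0297, 2.56% beside 0.755% of all fitted). With slide as a block 0 passed, and 1 (2.56%) had an unadjusted p below 0.05, beside 4.69% of all. Of the folds of single named genes, 41 of 74 moved beyond the spread of the swapped arrays under the normexp alternatives and 8 of 13 with another probe of the gene.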
